A study of Mus musculus with 2 samples.

Results

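The regions described here are the 479 sparsest of 2392 ranked autosomal bins of 1 Mb in a chromatin immunoprecipitation sequencing (ChIP-seq) study of mouse osteoblasts, and they are called the sparse bins. Bins were laid from the start of each of chromosomes 1 to 19, and a bin was ranked if it held 100 or more distinct positions in both libraries together. A distinct position is 1 combination of chromosome, 5′ end and strand, however many reads share it. The bins were selected on that sum, the bottom 20% being taken, so a low read density in these bins is how they were chosen and not a finding. Where a comparison was needed, it was made with the 479 bins in the middle of the ranking, called the middle bins. A further 22 bins held 1 to 96 positions and 68 bins held none, and neither kind was ranked.

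ChIP-seq reads the DNA fragments that an antibody recovers from cross-linked chromatin. The antibody, sc-30486 from Santa Cruz, is directed against Tnni2, the fast skeletal muscle form of troponin I, which inhibits contraction in the absence of calcium. Both libraries came from primary osteoblasts, the cells that lay down bone, of strain 129sv. Mice carrying del175k on both copies of Tnni2 gave 1 library, called mutant, and their wild-type littermates gave the other. The labels state no age. The series text gives n = 3, and no label says whether animals were pooled, so each genotype is represented by 1 library and no p-value is given. The mutant library held 3273273 reads at 3003795 distinct positions, and the wild-type library 3305140 reads at 2920353. Neither input DNA nor a control antibody entered the comparison. Without them, recovery by the antibody and other sources of reads cannot be told apart in any bin. The cell type could not be checked against marker genes from these files, since they hold read positions and no annotation of their build was used.

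As background, most reads of a ChIP-seq library fall outside the sites an antibody enriches, and their density follows what can be sequenced and placed. Repeated or unassembled sequence takes few uniquely placed reads. Long stretches of mammalian chromosomes that are rich in A and T, poor in genes and compactly packed also tend to yield fewer reads than gene-rich stretches. Base composition and genes could not be read here for want of a matching genome, and their part in the results below was not tested.

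The sparse bins held 10.8% of the positions in 19.8% of the ranked length. Their sums ran from 109 to 1623 positions with a median of 1381. The middle bins ran from 2131 to 2676 with a median of 2402. The median sparse bin held 742 mutant and 633 wild-type positions, and the median middle bin 1233 and 1168. The threshold itself marks no step. Just inside it lay the bins starting at 76000001 on chromosome 6, at 41000001 on chromosome 11 and at 44000001 on chromosome 8, with 1622, 1623 and 1623 positions. Just outside lay those starting at 3000001 on chromosome 1, at 78000001 on chromosome 13 and at 4000001 on chromosome 4, each with 1624. Both libraries ranked much the same bins as sparse. When each library was ranked alone, 442 bins stood in the bottom 479 of both, which is 92.3% of each list.

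Sparse bins lay on all 19 autosomes, in unequal shares. Chromosome 3 had the highest share, with 44 of 157 ranked bins (28.0%). Chromosomes 14 and 1 followed with 30 of 115 (26.1%) and 48 of 194 (24.7%). Chromosome 11 had the lowest share, with 6 of 119 (5.04%), below chromosome 18 with 8 of 88 (9.09%) and chromosome 19 with 7 of 59 (11.9%). Along the chromosomes the share fell towards the telomere. Of the bins in the centromeric, central and telomeric parts, cut into 3 equal numbers per chromosome, 23.8%, 21.4% and 14.8% were sparse. The last ranked bin was nevertheless sparse on 15 of 19 chromosomes, and the first on 7. All 15 of these last bins were shorter than 1 Mb. Scaled to full length, 9 of them would still have held no more than 1623 positions, and 6 would have held more.

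**Figure D1:**
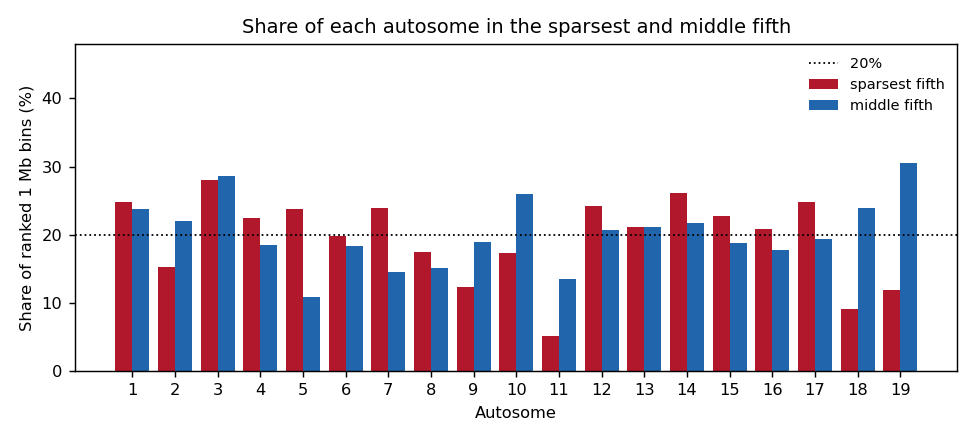
Share of the ranked 1 Mb bins of each autosome (y axis, percent) that fell among the sparse bins (red) and the middle bins (blue), with a dotted line at 20%. Chromosome 3 reaches 28.0% and chromosome 11 only 5.04% for the sparse bins.

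Sparse bins adjoined one another more often than middle bins did. They formed 227 stretches, of which 120 were single bins and 21 held 5 bins or more. The 21 long stretches took in 135 bins, or 28.2% of the sparse bins, on 10 chromosomes. The middle bins formed 334 stretches, with 230 single bins and 2 stretches of 5 or more. Of the ranked bins next to a sparse bin 55.0% were sparse as well and 3.27% belonged to the densest 479 bins. Of those next to a middle bin 30.5% were middle bins and 10.1% belonged to the densest. Such grouping was not particular to the sparse bins. The densest 479 bins formed 196 stretches, with 93 single bins, a longest of 13 bins and 36.3% of bins in stretches of 5 or more.

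The longest stretch ran over 11 bins on chromosome 15, from 14000001 to 25000000, counted as in the deposited files. Its 8165 mutant and 6879 wild-type positions filled all its bins, which held between 1227 and 1513. Only 3.02% of its length was free of reads for 10 kb or more, so low counts ran through all of it. The next longest lay on chromosome 14 from 88000001 to 98000000, with 7462 and 6390 positions over 10 bins. Its bins held 1208 to 1581 positions. Of the 4 stretches of 8 bins, the one on chromosome 17 from 16000001 to 24000000 was the sparsest, with 5142 and 4540 positions. That stretch also had the most read-free length among the 8 longest, at 10.3%. The other stretches of 8 bins lay on chromosome 5 from 55000001 to 63000000 (5916 and 4951 positions), on chromosome 3 from 42000001 to 50000000 (5842 and 5052) and on chromosome 14 from 107000001 to 115000000 (6061 and 5122). Stretches of 7 bins completed the 8 longest, on chromosome 1 from 44000001 to 51000000 (4678 and 4075) and on chromosome 3 from 11000001 to 18000000 (5101 and 4278). In 6 of these 8 stretches every bin, and in the other 2 all but 1 bin, held relatively more mutant positions after scaling.

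A bin can be sparse because part of it takes no reads, or because reads are thin where they do fall. Read-free stretches were defined as 10 kb or more without a 5′ end in either library. They took up 9.93% of the length of the sparse bins and 1.81% of that of the middle bins, and occurred in 419 of 479 (87.5%) and 254 of 479 (53.0%). Outside them the sparse bins held 1.47 positions per kb and the middle bins 2.45. Density was thus 0.599 times that of the middle bins on the covered length alone, against 0.575 times for the median sums. These values belong to the measure that ranked the bins and are given as a description.

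By make-up the sparse bins fell into unequal groups, with a border at 10% read-free length that was set after the values were seen. In 368 full-length bins read-free stretches took under 10% of the length, 2.83% in all. These bins were thin throughout, at 1.44 positions per kb and at most 1.76 in any bin. The lowest middle bin had 2.13. The ranking fixes that order, since no sparse bin holds more than 1623 positions and so little length is read-free. In 96 full-length bins read-free stretches took 10% or more, and in 25 of them over 50%. The 96 held 1.60 positions per kb outside the stretches. The remaining 15 were the short last bins of chromosomes, at 1.67 per kb. Only 17 sparse bins reached the density range of the middle bins outside their read-free stretches, with a median of 45.0% of their length read-free. Given the ranking, a full-length sparse bin could reach that range only with much of its length read-free.

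Read-free stretches touching the sparse bins numbered 1894, and most were short. The stretch before the first 5′ end of a chromosome is left out of this count and list. It is long, since on chromosome 3 that end lay at 3000123. Its part inside sparse bins does count in the 9.93% above. Their median length was 13.4 kb, and 1440 (76.0%) were under 20 kb. The longest of those counted ran over 7028 kb of chromosome 7, from 39356165 to 46384163, and sparse bins took in its 2 edges. The next were 2191 kb on chromosome 7 from 21891400 to 24082594 and 2015 kb on chromosome 1 from 85343592 to 87358795. Chromosome 8 held the fourth and the fifth, from 20032993 to 22039292 and from 56200204 to 57910210. Both libraries lacked reads over all of each stretch by definition. Whether these places are unassembled or repeated sequence was not tested.

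The emptiest bins were mostly of the gapped kind. Chromosome 13 from 66000001 to 67000000 held the fewest, 52 mutant and 57 wild-type positions, with 92.5% of its length read-free. Chromosome 12 had 3 of the 5 emptiest bins side by side, between 18000001 and 21000000. They held 100, 67 and 106 mutant and 83, 43 and 88 wild-type positions, and 77.8%, 81.4% and 65.2% of their length was read-free. Unlike the bin on chromosome 13, which held 1.45 positions per kb outside the gaps, these 3 were also thin there, at 0.825, 0.592 and 0.557 per kb. The fifth of the emptiest was the last 68.06 kb of chromosome 9, with 69 and 57 positions and no read-free stretch.

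The libraries did not share the sparse bins equally. The mutant library placed 334361 of its ranked autosomal positions there, a share of 11.4%, and the wild-type library 286830, a share of 10.2%. Scaled to the positions on chromosomes 1 to 19, the ratio of mutant to wild type was 1.12 (95% exact Clopper-Pearson interval of the split 1.118 to 1.129). In the middle bins, with 591276 and 559086 positions, it was 1.02 (1.016 to 1.023). In the densest 479 bins it was 0.927 (0.924 to 0.930). The sparse ratio was 1.10 times the middle one (95% counting interval 1.095 to 1.109). Intervals here cover counting error only and compare these 2 libraries, not the genotypes. The rule used the sum of both libraries and not their split.

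The higher mutant share was spread over nearly all sparse bins. A ratio above 1 was found in 456 of 479 sparse bins (95.2%), against 56.9% of all 2392 ranked bins and 61.6% of the middle bins. Among the densest 479 bins the share was 8.98%. From the sparse to the middle to the densest bins the ratio fell, so a departure from 1 was not particular to the sparse bins. The median sparse bin had a ratio of 1.13, with 10% of bins below 1.03 and 10% above 1.22. Over single bins, log2 ratios had an SD of 0.11, of which sampling of the counts gives 0.09. For the middle bins these values were 0.09 and 0.06. Most of the spread among sparse bins thus lay within what counting alone gives. The 95% interval of a single bin lay wholly above 1 in 246 sparse bins (51.4%) and wholly below in 0, against 23.8% and 17.3% of all ranked bins.

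Larger differences were few. A ratio at least 25% above 1 was reached by 24 sparse bins (5.01%), against 1.67% of all ranked bins, and 0 sparse bins were lower by the same fold, against 0.0418%. A sparse bin holds fewer positions, so its counting error is larger, and the median sparse bin already had a ratio of 1.13. How much each adds to the 24 was not tested. With the interval widened by Bonferroni correction over 2392 bins, 15 sparse bins lay above 1 (3.13%, against 1.88% of all) and 0 below (against 1.96% of all). Among sparse bins with 400 or more positions the highest ratio was on chromosome 3 from 112000001 to 113000000, with 896 mutant and 612 wild-type positions, a ratio of 1.41 (1.27 to 1.57). The bins on chromosome 1 from 116000001 (875 and 632 positions) and on chromosome 16 from 47000001 (853 and 619) followed, each with a ratio of 1.33 (1.20 to 1.48). All 3 were among the 15. The lowest ratios were on chromosome 13 from 120000001 (280 and 303 positions), chromosome 4 from 113000001 (255 and 270) and chromosome 19 from 9000001 (636 and 669). Their ratios of 0.891 (0.754 to 1.05), 0.910 (0.764 to 1.08) and 0.916 (0.821 to 1.02) could not be told from 1 at this depth.

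**Figure D2:**
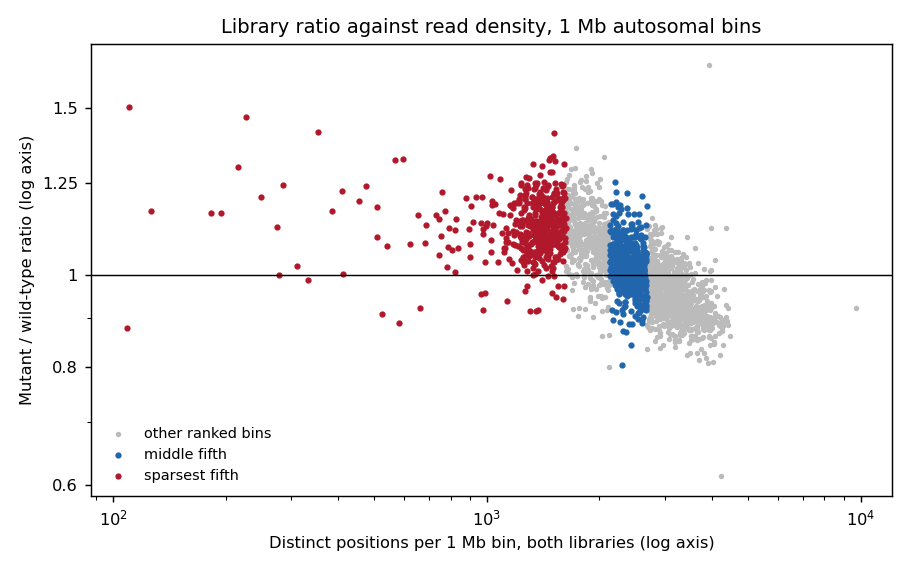
Each point is 1 ranked bin: distinct positions in both libraries (x axis, log scale) against the depth-scaled mutant to wild-type ratio (y axis, log scale), with sparse bins in red, middle bins in blue and all others in grey. Of the sparse bins 456 of 479 lie above the line at 1, and the scatter widens to the left where counts are small.

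The same direction was found on every autosome. The ratio of the sparse bins lay between 1.06 on chromosome 19 (1.02 to 1.11, 7 bins) and 1.18 on chromosome 18 (1.14 to 1.23, 8 bins), and all 19 intervals lay above 1. The middle bins lay between 0.989 on chromosome 7 and 1.05 on chromosome 19. The sparse ratio exceeded the middle ratio on 19 of 19 chromosomes, and on 18 the 2 intervals did not overlap. On chromosome 19 they did. Chromosome 11, with only 6 sparse bins, had a ratio of 1.12 (1.08 to 1.17) in them and 1.001 in its middle bins. The autosomes of 1 library are not replicates, since they share its preparation and its depth.

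**Figure D3:**
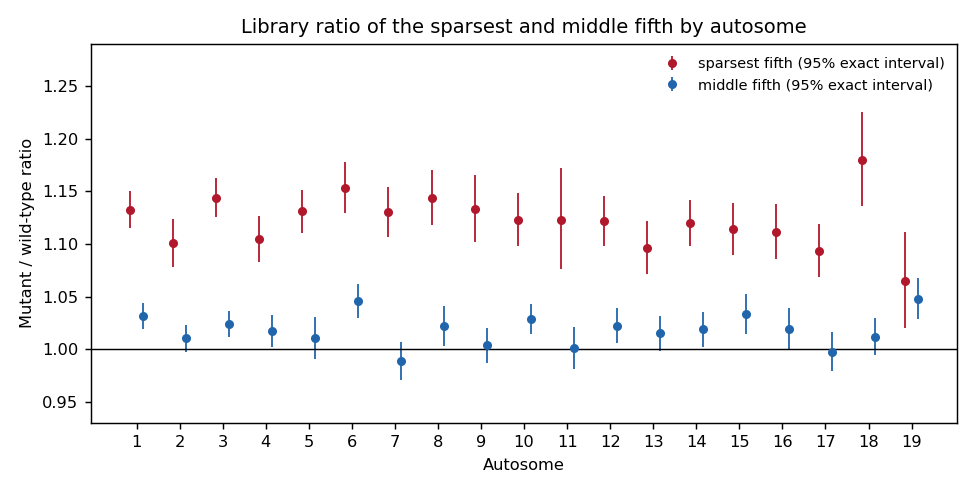
Depth-scaled mutant to wild-type ratio (y axis) of the sparse bins (red) and the middle bins (blue) on each autosome (x axis), with 95% exact intervals for counting error. Every red point lies above its blue neighbour, from 1.06 on chromosome 19 to 1.18 on chromosome 18.

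Within the sparse bins the ratio did not go on rising as the sums fell. Cut into 5 groups by sum, from the emptiest to the fullest, the ratios were 1.11 (1.10 to 1.13), 1.12 (1.11 to 1.13), 1.13 (1.12 to 1.14), 1.13 (1.12 to 1.14) and 1.12 (1.11 to 1.14). These intervals all overlap. The emptiest group held 31.6% read-free length and the fullest 4.29%. The ratio differed between the groups set by read-free length. It was 1.13 (1.128 to 1.141) in the 368 full-length bins with under 10% read-free length, where 364 lay above 1. In the 96 full-length bins with 10% or more it was 1.07 (1.06 to 1.08), with 79 above 1. The first was 1.06 times the second (1.05 to 1.07). Outside the read-free stretches these groups also differed in density, at 1.44 and 1.60 positions per kb. Read-free length and density are thus not separated here. The 15 short last bins had a ratio of 1.10 (1.06 to 1.14).

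With density outside the read-free stretches the ratio changed only at the top of its range. In 5 groups of rising density it was 1.13 (1.11 to 1.14), 1.14 (1.13 to 1.15), 1.13 (1.12 to 1.14), 1.13 (1.12 to 1.15) and 1.09 (1.08 to 1.10). The last group began at 1.60 positions per kb. The 17 sparse bins whose density there reached that of the middle bins held 10059 and 9506 positions, a ratio of 1.02 (0.992 to 1.05). That is 1.001 times the ratio of the middle bins (0.973 to 1.03). The 462 others had a ratio of 1.13 (1.12 to 1.13), 1.11 times that of the 17 (1.07 to 1.14). The groups were formed after the data were seen. All 8 of the longest stretches were higher in the mutant library. In 6 of them every bin had under 10% read-free length, while 3 of the 8 bins on chromosome 17 and 1 of the 7 on chromosome 3 from 11000001 had more. The 11 bins on chromosome 15 had a ratio of 1.14 (1.11 to 1.18), with single bins from 1.03 to 1.30, and the 10 bins on chromosome 14 from 88000001 one of 1.13 (1.09 to 1.16), with bins from 1.04 to 1.22. Among the 8 longest the ratio ran from 1.09 (1.05 to 1.14) on chromosome 17 to 1.15 (1.11 to 1.20) on chromosome 5. All 21 stretches of 5 or more bins lay above 1, with a summed ratio of 1.13 (1.12 to 1.14), and the 120 single bins had 1.11 (1.10 to 1.12).

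Reads that repeat a position already seen can be PCR copies of 1 fragment. In the mutant library they made up 8.58% of the reads in the sparse bins (95% exact binomial interval 8.49 to 8.67%) and 8.22% in the middle bins (8.15 to 8.29%). The difference of 0.357 percentage points (0.244 to 0.470) had the same sign on 18 of 19 chromosomes. In the wild-type library the shares were 11.6% (11.5 to 11.7%) and 11.5% (11.5 to 11.6%), with a difference of 0.0909 points (-0.0446 to 0.227) and the sparse share higher on 13 of 19. With positions of 10 or more reads left out the differences were 0.429 (0.316 to 0.542) and 0.156 points (0.0209 to 0.292), so the wild-type interval then excludes 0. The sparse bins hold no such position, so only the shares of the middle bins changed under this setting. The gap between the libraries was far larger than either difference between bins. In the mutant library the densest 479 bins had 7.83% and all ranked bins 8.22%. For the wild-type library these were 11.5% and 11.6%. The mutant share thus fell from the sparse to the middle to the densest bins, and a departure from the middle was not particular to the sparse bins. Copies are not independent, so these intervals are too narrow.

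No tall stacks of reads fell in the sparse bins. No position there held 10 or more reads, 0 of 334361 in the mutant library and 0 of 286830 in the wild-type library, which allows shares of up to 0.000897% and 0.00105%. The fullest position held 6 and 9 reads. These limits treat positions as independent. On all ranked bins 183 and 185 positions held 10 or more. The densest 479 bins had 0 and 10 of them, so a lack of tall stacks was not particular to the sparse bins. The middle bins had 32 in each library, but 32 of the mutant and 30 of the wild-type ones stood in 1 bin, on chromosome 9 from 35000001 to 36000000, so the difference from the middle bins rests on that bin. In the sparse bins the repeated share was highest on chromosome 4 from 70000001 to 71000000 in both libraries, at 14.8% of 1020 mutant and 18.1% of 903 wild-type reads. The next highest were small bins in the mutant library, the last bin of chromosome 1 (13.8% of 159 reads) and chromosome 12 from 19000001 (13.0% of 77). In the wild-type library they were chromosome 13 from 50000001 (15.8% of 354) and chromosome 7 from 12000001 (15.3% of 518).

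Clustering of fragments was read from pairs of positions. When both ends of like-sized fragments are sequenced from 1 place, 5′ ends on opposite strands lie about 1 fragment length apart. Over all ranked bins such pairs were most frequent at 216 bp in the mutant library and 213 bp in the wild-type library. In the sparse bins alone the peak lay at 203 and 207 bp, more than 5 bp below those spans. In the middle bins alone it lay at 214 and 213 bp, so the span used was nearer to their peak. Within 5 bp of that span, the sparse bins held 1754 mutant pairs, 1.80 times the frequency at 500 to 600 bp (1.71 to 1.89). The middle bins held 4547, 1.80 times (1.74 to 1.86). In the wild-type library the sparse bins held 1588 pairs, 2.14 times (2.02 to 2.25), and the middle bins 5056, 1.95 times (1.89 to 2.01). Sparse over middle, this is 0.999 (0.940 to 1.06) in the mutant library and 1.09 (1.03 to 1.16) in the wild-type library.

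Neither value for opposite-strand pairs was stable. The sparse value was higher on 10 of 19 chromosomes, and on 11 of 19 in the mutant library. With 500 bp windows of 20 or more positions left out, it became 1.05 (0.988 to 1.12), and 1.04 (0.980 to 1.11) in the mutant library. In full-length bins with under 10% read-free length and the same windows left out, it was 1.11 (1.03 to 1.19) and 1.07 (1.00266 to 1.15). Where bins began also mattered. With bins shifted by 500 kb the mutant values were 1.95 (1.86 to 2.05) in the sparse bins and 1.67 (1.61 to 1.73) in the middle bins, so the likeness seen above was lost. The wild-type values with shifted bins were 2.03 (1.92 to 2.14) and 2.01 (1.95 to 2.08), so the wild-type difference was lost in turn. With bins ranked on the mutant library alone they were 2.11 and 2.11, with overlapping intervals. Per position, pairs in excess of the level at 500 to 600 bp were fewer in the sparse bins. They numbered 2.33 per 1000 mutant positions against 3.42 in the middle bins, and 2.94 against 4.41 in the wild-type library. Relative to the middle bins that is 0.681 and 0.667 times. Density outside read-free stretches was 0.599 times with the libraries pooled, and it differed by library. The mutant library held 789 positions per Mb there in the sparse bins and 1258 in the middle bins. The wild-type library held 677 and 1190. Pairs share positions, so the intervals are a lower limit of the error.

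**Figure D4:**
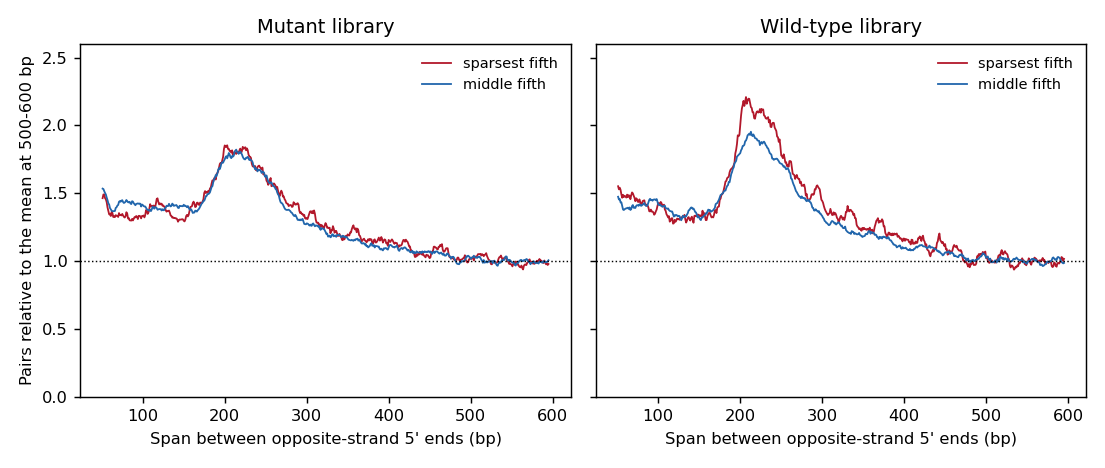
Pairs of opposite-strand 5′ ends by their span (x axis, bp), relative to their mean frequency at 500 to 600 bp (y axis, smoothed over 11 bp), in the mutant (left) and wild-type (right) library, for sparse bins (red) and middle bins (blue). Both peak near 200 bp, at similar heights in the mutant library and with the sparse bins higher in the wild-type library, where the values at 213 bp are 2.14 and 1.95.

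On the same strand, close pairs were more frequent in the sparse bins relative to pairs at 500 to 600 bp, in both libraries. Per position they were fewer. The sparse bins held 8148 pairs 5 to 30 bp apart at 334361 mutant positions, against 20136 at 591276 in the middle bins. For the wild-type library these were 6686 at 286830, against 20554 at 559086. At distances of 5 to 30 bp the mutant library had 1.90 times the frequency at 500 to 600 bp (1.85 to 1.95), against 1.73 in the middle bins (1.70 to 1.75). In the wild-type library the values were 2.05 (1.99 to 2.11) and 1.72 (1.69 to 1.74). Sparse over middle this is 1.10 (1.07 to 1.14) and 1.20 (1.16 to 1.24), higher on 17 of 19 chromosomes in each library. Single chromosomes stood apart, chromosome 4 at 4.26 and 6.07 in the sparse bins and chromosome 9 at 7.56 in each library in the middle bins. With the dense 500 bp windows left out the mutant values were 1.71 and 1.39 and the wild-type values 1.75 and 1.45. Sparse over middle that is 1.23 (1.19 to 1.27) and 1.21 (1.164 to 1.253), higher on 19 and 18. In full-length bins with under 10% read-free length sparse over middle was 1.10 (1.06 to 1.14) and 1.18 (1.13 to 1.22). Same-strand pairs 100 to 200 bp apart showed no such difference, at 1.30 against 1.31 in the mutant library and 1.32 against 1.30 in the wild-type library, with overlapping intervals.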

How the data were processed

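Both deposited files list 1 aligned 36 bp read per line. Bowtie is the aligner named in the submitters' processing notes; its version and any filters are not stated there. The score deposited by the authors is constant and was not used. The series text names mouse reference 8, but the last 5′ end on chromosome 7, at 152524418, lies beyond the last gene (145324059) of the GRCm38 table at hand and the build is uncertain. Coordinates are printed as deposited, counted from 1, without genes or sequence.

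Reads were reduced to distinct positions, binned, ranked and scaled to 2927228 mutant and 2821498 wild-type positions on chromosomes 1 to 19. A chromosome was taken to end at its last 5′ end. The interval of a ratio of ratios, of a difference of shares and of pair frequencies is a normal approximation for counts. The bins, lists and rules were chosen with earlier results of these data known. By rule the text names the 8 longest stretches, the 5 emptiest bins, the extreme ratios and repeat shares and the bins at the threshold. It also names the 5 longest read-free stretches that lie after the first 5′ end of a chromosome. Functions were tested on simulated data. Alternatives covered bin start and size, ranking, repeated reads, scaling and read-free stretches. Software was matplotlib 3.10.9, pandas 2.3.3, scipy 1.17.1 and numpy 2.4.6 under Python 3.11.15.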

Additional observations from a re-analysis of the deposited data

Results flagged for a closer look

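The 22 autosomal bins with 1 to 96 positions, outside the ranking, held 579 positions (303 mutant and 276 wild-type). Their ratio of 1.06 (0.896 to 1.2502) could not be told from 1. They lay on 7 chromosomes, 8 of them on chromosome 14 and 4 on chromosome 7.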

How the results depend on the processing

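The ratio of the sparse bins stayed above 1 under all 11 alternatives. It was 1.11 when bins were ranked on the mutant library alone, 1.13 on the wild-type library alone, 1.13 on density outside read-free stretches, 1.12 in the bottom 10%, 1.10 with scaling to the median bin, 1.14 in the 60 bins without a read-free stretch and 1.13 in full-length bins with under 10% read-free length. That last setting and the use of full-length bins only were added with the values known. Sparse over middle it was 1.11, 1.11, 1.12 and 1.11 with ranking on the wild-type library, ranking on density, no read-free stretch and under 10% read-free length. Bins differing by 25% or more numbered 136 higher and 4 lower with 500 kb bins, 13 higher in the bottom 10%, 6 higher without read-free stretches, and 1 lower each with bins shifted by 500 kb and with all reads. Fewer or smaller bins change such counts by construction. The mutant opposite-strand value was 1.95 with shifted bins, 1.94 with 500 kb bins, 2.06 without read-free stretches and 1.64 over 150 to 250 bp; the wild-type value was 2.34 and 1.79 under the last 2, and 2.27 in full-length bins with under 10% read-free length. The mutant repeated share was 8.68% without read-free stretches. Read-free length was 11.5% with shifted bins, 9.69% with 500 kb bins, 10.1% and 9.67% with ranking on the mutant and wild-type library, 6.85% with ranking on density, 16.4% in the bottom 10%, and 21.9% and 5.99% with minimums of 5 and 20 kb. In the bottom 10% 16 Mb lay in stretches of 5 Mb or more. Causes were not tested. No paired analysis was possible because each genotype has 1 library, and for the same reason none could be left out. Depth limits single sparse bins, of which 246 of 479 had an interval apart from 1.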

Other observations

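In windows of 10 kb outside read-free stretches, the sparse bins held a median of 14 positions in both libraries together (10th to 90th percentile 6 to 24, 40938 windows) and the middle bins 24 (13 to 36, 46585 windows). Windows with 50 or more positions numbered 48 in the sparse bins and 278 in the middle bins. These window values belong to the measure that ranked the bins and are given as a description. Both strands were read equally in the sparse bins, with 49.98% of mutant positions (95% exact interval 49.81 to 50.15%) and 50.05% of wild-type positions (49.87 to 50.23%) on the plus strand.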
